A study of Mus musculus with 6 samples.

Results

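Dbp, Tef, Hlf and Nfil3 encode the PAR bZIP clock output factors and their opponent, and all 4 were among the 32285 genes measured in single cells sorted from the mouse amygdala. They were taken as a list, and their RNA was followed in 2 classes of cells that were chosen by marker counts. Astrocytes were the barcodes with at least 20 UMIs (unique molecular identifiers, each standing for 1 captured RNA molecule) of the glutamate transporter genes Slc1a2 and Slc1a3 together and at most 3 of the pericyte genes Vtn and Rgs5. Pericytes, the contractile cells that wrap capillaries, had at least 10 UMIs of Vtn and Rgs5 and at most 5 of Slc1a2 and Slc1a3. Of 13546 barcodes, 8757 were astrocytes, 2260 were pericytes and 2529 were neither. To compare groups of mice, a barcode was assigned to a mouse when its strongest hashtag, an antibody label added to the cells of each mouse before pooling, had at least 10 UMIs and at least 3 times the next. This left 1024 pericytes from 16 mice and 335 astrocytes.

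The circadian clock of each cell is a loop in which CLOCK and BMAL1 (encoded by Arntl) drive the Per and Cry genes from E-boxes and are then held back by PER and CRY, while REV-ERB proteins (Nr1d1, Nr1d2) repress Arntl. Dbp, Tef and Hlf are outputs of that loop: their proteins share a proline- and acid-rich (PAR) domain next to a basic leucine zipper (bZIP), bind D-boxes and activate transcription there. Nfil3, also called E4BP4, has the same kind of zipper without the PAR domain and represses from the same D-boxes. Mice that lack all of the activators develop seizures, which has been linked to Pdxk, the gene of the kinase that makes active vitamin B6 in the brain.

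The labels give the mice as wild-type C57BL/6N males, with no age, while the study's methods name C57BL/6NCrSlc young adults and the use of both sexes over its experiments as a whole. The 4 groups of 4 mice were non-shocked mice (NoFC), fear-conditioned mice (FC), conditioned mice that were collected a day later without recall (NoFR) and mice that recalled the fear a day after conditioning (FR). The study's methods give tissue collection as 90 min after the start of behaviour. NoFR mice stayed in their home cages instead of recall, and what the 90 min count from in them is not stated. Tissue was dissociated with blockers of transcription and translation present in every group. Cells were sorted on the astrocyte antigen ACSA-2 and against CD11b, CD45 and O1. Behaviour took place in the light phase, but the hour at which each group was collected is unknown here, so group and hour of collection cannot be told apart. Each of 3 libraries was a pool of mice: mice 1 and 2 of every group were in library 1, mice NoFC 3, FC 3, FC 4 and FR 3 in library 2, and mice NoFC 4, NoFR 3, NoFR 4 and FR 4 in library 3.

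The genes lie apart in the genome (GRCm38). Dbp (ENSMUSG00000059824) spans chr7:45705088-45710203 on the plus strand and overlaps Sphk2 on the minus strand by 737 bases. Tef (ENSMUSG00000022389) spans chr15:81802421-81826863 on the plus strand and overlaps Gm17597 on the minus strand by 193 bases. Hlf (ENSMUSG00000003949) spans chr11:90336536-90390895 and Nfil3 (ENSMUSG00000056749) spans chr13:52967209-52981073, both on the minus strand and without an overlapping gene. The sources used here do not say whether counting used strand, so reads of Dbp and Sphk2 in the shared bases might not be told apart. Sphk2 was low in pericytes, with group means of 10.9 to 19.3 CPM (UMIs of a gene per 1000000 UMIs), and its means were not ordered like those of Dbp.

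The 250 bases before the RefSeq start of each gene are shown because Dbp, Tef and Hlf changed in the same direction in the comparisons described later. RefSeq (GRCm38.p6) gave windows for all 4 members, 2 of them for Tef. Its starts differ from the gene positions given above, which come from another annotation. The Dbp and Nfil3 windows reach into those gene spans, and both Tef windows lie inside that of Tef. Distances before a start refer to the RefSeq start. Per1 and Per3, genes of the clock loop, are shown beside them because a window of each holds D-box letters, the kind of site that the members bind. Per1 has a second window (chr11:69099902-69100151, not printed), which held none of the motifs searched. Windows of Pdxk, Nr1d1, Nr1d2, Arntl and Ciart, genes taken up later, held no D-box and are not printed. Those of Pdxk and Ciart held the E-box. In all, 4 motifs were searched on both strands: the E-box CACGTG, the D-box as TTATGTAA or TTATGCAA, the core AGGTCA bound by ROR and REV-ERB proteins, and the cAMP response element TGACGTCA. None of these strings contains another. Capitals mark the matches, and each sequence runs 5′ to 3′ on the strand of its gene.
Dbp, chr7:45704997-45705246, plus strand: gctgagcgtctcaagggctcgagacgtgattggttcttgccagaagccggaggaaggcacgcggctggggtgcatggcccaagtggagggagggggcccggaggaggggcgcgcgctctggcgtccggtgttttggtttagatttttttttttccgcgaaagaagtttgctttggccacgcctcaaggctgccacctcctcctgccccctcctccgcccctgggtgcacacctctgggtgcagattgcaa
Tef, first start, chr15:81802423-81802672, plus strand: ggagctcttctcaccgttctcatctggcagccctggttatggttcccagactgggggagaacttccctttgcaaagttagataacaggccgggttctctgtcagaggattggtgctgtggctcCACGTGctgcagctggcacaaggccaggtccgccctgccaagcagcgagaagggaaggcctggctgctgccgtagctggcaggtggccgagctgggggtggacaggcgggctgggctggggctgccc
Tef, second start, chr15:81811164-81811413, plus strand: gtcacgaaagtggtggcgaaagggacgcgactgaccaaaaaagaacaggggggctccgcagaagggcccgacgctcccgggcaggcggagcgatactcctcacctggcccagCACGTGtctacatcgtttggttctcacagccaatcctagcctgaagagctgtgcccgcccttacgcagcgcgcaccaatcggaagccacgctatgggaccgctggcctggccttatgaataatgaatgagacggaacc
Hlf, chr11:90390918-90391167, minus strand: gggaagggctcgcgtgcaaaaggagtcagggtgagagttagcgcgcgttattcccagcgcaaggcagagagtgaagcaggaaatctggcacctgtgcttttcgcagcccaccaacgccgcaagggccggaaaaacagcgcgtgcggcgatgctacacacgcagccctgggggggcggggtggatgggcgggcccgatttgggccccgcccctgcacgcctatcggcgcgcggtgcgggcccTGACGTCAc
Per1, chr11:69098699-69098948, plus strand: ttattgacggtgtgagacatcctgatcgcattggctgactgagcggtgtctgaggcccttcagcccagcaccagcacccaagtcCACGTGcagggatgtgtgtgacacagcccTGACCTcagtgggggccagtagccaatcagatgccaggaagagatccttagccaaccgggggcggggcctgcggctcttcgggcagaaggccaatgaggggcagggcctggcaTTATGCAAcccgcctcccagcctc
Per3, chr4:151044666-151044915, minus strand: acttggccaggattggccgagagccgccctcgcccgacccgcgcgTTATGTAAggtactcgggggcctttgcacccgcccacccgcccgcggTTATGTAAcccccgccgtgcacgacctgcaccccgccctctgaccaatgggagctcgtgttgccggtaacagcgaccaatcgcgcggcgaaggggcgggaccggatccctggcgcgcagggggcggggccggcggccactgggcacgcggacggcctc
Both Tef windows held an E-box, 127 and 138 bases before the start. The Hlf window held a cAMP response element 9 bases before the start, the Nfil3 window (chr13:52981040-52981289, not printed) held AGGTCA 12 bases before it, and the Dbp window held none of the 4 motifs. Of 32851 such windows over all genes, 6.02% held the E-box, 1.50% the D-box, 14.0% AGGTCA and 1.55% the cAMP response element. A match is a string of letters and not a measured site.

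The 3 libraries held 5287, 3631 and 4628 barcodes, and 18 barcode sequences occurred in more than 1 library. Median depth was 9891 UMIs in astrocytes and 5006 in pericytes. All 7 astrocyte markers were detected in the astrocytes and all 6 pericyte markers in the pericytes, whose pericyte markers summed to between 21745 and 26460 CPM in every mouse. The labels name the sorted cells astrocytes, so the 16.7% of barcodes with pericyte markers go against the label. The study's methods state that its own analysis took pericytes out by their Pdgfrb. Hashtag counts differed between the classes, and the strongest and next hashtags had medians of 18 and 3 UMIs in pericytes against 4 and 2 in astrocytes. Between 36 and 110 pericytes were assigned to each mouse, with 187654 to 629179 UMIs. Astrocytes numbered 159 in mouse FC 1, 46 in FR 3 and 3 to 16 in the other mice, so that 11 mice had the minimum of 5 astrocytes and most of the assigned astrocytes came from 2 mice. The hashtags of FC 1 and FR 3 also had the most UMIs in their libraries.

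Before the groups were compared, the members were described in the 2 classes over all barcodes, with the library as the unit. The classes were cut by marker genes, so these levels are a description and carry no test. Dbp, a high-amplitude clock output in many tissues, stood at 92.3, 81.3 and 80.4 CPM in the astrocytes of libraries 1, 2 and 3 and at 233, 227 and 178 CPM in the pericytes. The mean in pericytes, 213 ± 30.3 CPM (SD, n = 3 libraries), was 2.51 times that in astrocytes, 84.7 ± 6.59 CPM. Hlf, named for a leukaemia fusion partner, stood at 131, 133 and 131 CPM in astrocytes and at 341, 353 and 293 CPM in pericytes, a ratio of 2.50. For both genes every pericyte value lay above every astrocyte value, but 44.1% of 14370 genes with at least 100 UMIs also had higher values in the pericytes of every library.

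Tef, first found as a factor of the thyrotroph cells of the pituitary, had 130.3, 135 and 134 CPM in astrocytes and 115, 123 and 97.2 CPM in pericytes, a ratio of 0.84. Its pericyte values all lay below the astrocyte values, as did those of 39.1% of genes. These class levels pool all groups of mice, and the pericyte levels of Dbp, Tef and Hlf differed between groups, as described below. In the assigned NoFC pericytes Tef had means of 164, 174 and 198 CPM in libraries 1, 2 and 3 after TMM scaling, above the pooled astrocyte values. Dbp in NoFR pericytes had means of 65.6 and 111 CPM in libraries 1 and 3. The mean of library 1 lay below the pooled astrocyte value of that library, and the mean of library 3 lay above its own. The astrocyte values pool all groups and are not TMM-scaled, so whether the order of the classes depends on the group was not tested. Nfil3 was rare in both classes. It had 10 UMIs in 10 astrocytes, or 0.109 CPM (exact Poisson 95% interval 0.0524 to 0.201), and 21 UMIs in 21 pericytes, or 1.80 CPM (1.11 to 2.75). These intervals cover counting error only. The share of cells with a Nfil3 UMI was 0.114% of astrocytes (exact binomial 95% interval 0.0548 to 0.210%) and 0.929% of pericytes (0.576 to 1.42%), at the unequal depths given above.

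**Figure D1:**
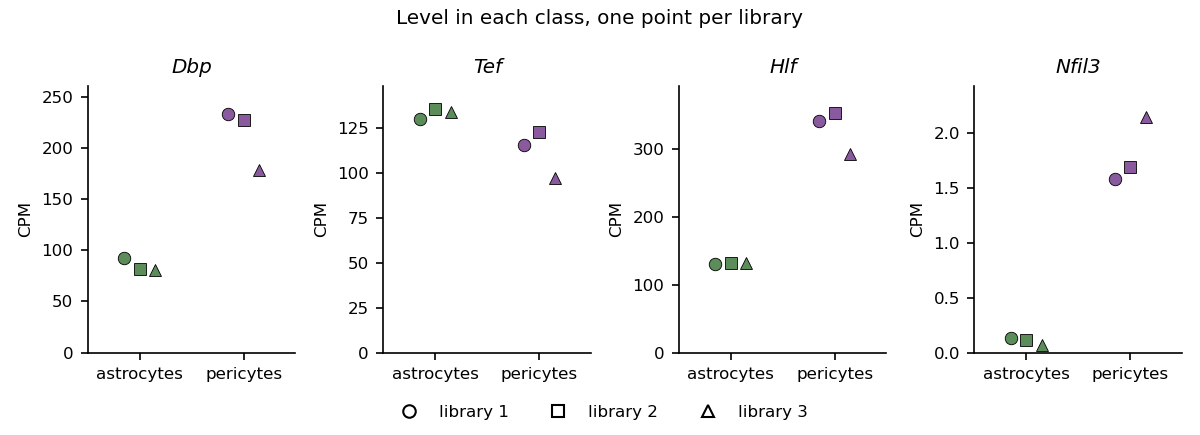
Level of each member in CPM (linear axes from 0) in astrocytes and pericytes, with 1 point per library. With all groups of mice pooled, pericytes lay above astrocytes for Dbp and Hlf and below them for Tef. Nfil3 stayed under 3 CPM in both classes.

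The share of cells with a UMI depends on depth, so each cell was also thinned to 3000 UMIs, which left out 541 astrocytes and 157 pericytes that were shallower. A Dbp UMI was present in 48.8% of astrocytes and in 49.5% of pericytes as sequenced, and in 22.3% and 39.0% after thinning. Hlf was found in 59.7% and 67.0% as sequenced and in 29.7% and 55.3% after thinning. For Tef the shares were 66.2% and 36.7% as sequenced and 32.2% and 25.6% after thinning. At equal depth the order of the shares was thus the order of the CPM for all 3 genes. No class that should lack these genes was at hand, so the part that free RNA has in the shares was not measured.

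Conditioned mice without recall had the lowest levels of the 3 activator genes in pericytes. Dbp had a mean of 385 CPM in NoFC and 88.3 CPM in NoFR, Tef 175 and 57.6 CPM, and Hlf 424 and 209 CPM. FC lay near or under NoFC, and FR lay between NoFR and the mice collected on the day of conditioning. UMIs were summed over the pericytes of each mouse and tested with edgeR's quasi-likelihood test over 6543 genes, with terms for group and library and p-values adjusted by Benjamini-Hochberg. CPM of mice is after TMM scaling. Of the 4 members, 3 passed the filter on low counts, and all 3 were lower in NoFR than in NoFC at an adjusted p under 0.05. Over all genes tested 41 were lower and 31 higher, 0.627% and 0.474%, and the members' median log2 fold change was −1.63 against −0.00207 over all genes. The list was drawn up with earlier results of these data known, so each p-value stands for 1 gene in a fit over all genes.

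**Figure D2:**
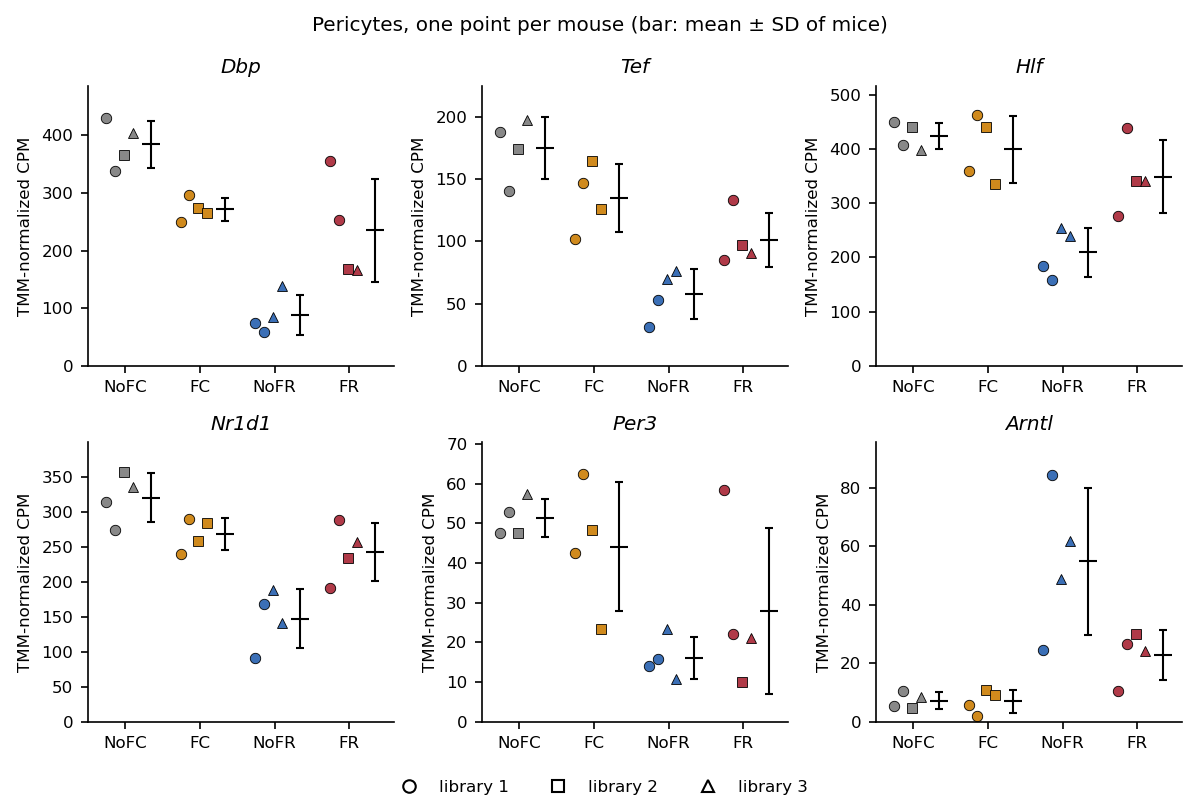
Level of the 3 tested members and of Nr1d1, Per3 and Arntl in the pericytes of each mouse, in TMM-normalized CPM on linear axes from 0, by group; marker shapes give the library and bars the mean ± SD of 4 mice. Every NoFR mouse lies below every mouse of NoFC, FC and FR for Dbp, Tef and Hlf, and above every NoFC and FC mouse for Arntl.

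Dbp had 431, 338, 366 and 404 CPM in mice 1 to 4 of NoFC and 249, 296, 274 and 266 CPM in those of FC. It had 73.3, 58.0, 83.8 and 138 CPM in NoFR and 355, 253, 167 and 166 CPM in FR. All NoFR mice were below all mice of the other groups, as for 2.55% of genes against NoFC and 2.67% against FC, and the 2 FR mice of library 1 were above those of libraries 2 and 3. The group means were 385 ± 41.0 CPM for NoFC, 271 ± 19.5 CPM for FC, 88.3 ± 34.9 CPM for NoFR and 235 ± 89.6 CPM for FR (SD, n = 4 mice each). NoFR was 4.38-fold lower than NoFC (log2 fold change −2.13, SE 0.197, adjusted p = 1.49e-10 by edgeR's quasi-likelihood test), and Dbp ranked 2 by p and 3 by the size of the fall among 6543 genes. NoFR was also lower than FC by −1.65 (SE 0.222, adjusted p = 4.80e-06), a comparison in which all 3 tested members were lower against 0.336% of genes.

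Dbp was 2.54-fold higher in FR than in NoFR (log2 fold change 1.35, SE 0.220, adjusted p = 0.000348). In that comparison 2 of the 3 tested members, Dbp and Hlf, were called higher, against 7 genes or 0.107%. The difference was 2.21 on the log2 scale within library 1 and 0.58 within library 3, and without library 1 it was 0.68 with an adjusted p of 0.675. Summed endothelial markers ran from 63.2 to 156 CPM in the pericytes of NoFR mice and from 132 to 359 CPM in those of FR mice, with all 4 markers detected, and the part they have in the difference was not tested. FR was lower than NoFC by −0.78 (SE 0.162, adjusted p = 0.0411), and Dbp was the 1 gene called lower there (0.0153%). The groups overlapped, and the call held in 10 of 28 alternative settings, with adjusted p up to 0.660. It was lost on leaving out any 1 of 11 mice, with differences from −0.83 to −0.57, or library 2 (−0.67) or library 3 (−0.62).

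Between FC and NoFC the Dbp difference was −0.48 (SE 0.153), with an unadjusted p of 0.00328 and an adjusted p of 0.999 by edgeR. The FC mice all lay below the NoFC mice, as they did for 1.67% of genes. No gene passed the adjusted threshold between FC and NoFC or between FR and FC, by edgeR or by DESeq2, and 297 and 314 genes had an unadjusted p under 0.05 by edgeR. The order of the Dbp means was NoFC, FC, FR, NoFR, in which FC and FR overlapped. The difference of FR from FC was −0.31 (SE 0.176, 95% interval by normal approximation −0.65 to 0.04, adjusted p = 0.961).

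Tef followed the same order of groups. It had 188, 141, 174 and 198 CPM in mice 1 to 4 of NoFC and 102, 147, 165 and 126 CPM in those of FC. It had 31.4, 52.7, 69.8 and 76.4 CPM in NoFR and 84.8, 133, 97.0 and 90.5 CPM in FR. NoFR mice were again below all others, FC overlapped NoFC and FR, and FR lay below NoFC without overlap. NoFR was 3.09-fold lower than NoFC (log2 fold change −1.63, SE 0.216, adjusted p = 7.14e-08 by edgeR) and lower than FC by −1.32 (SE 0.243, adjusted p = 0.000322). FR was above NoFR in every mouse, as it was for 2.02% of genes, but the difference of 0.82 (SE 0.248) had an adjusted p of 0.290. The difference of FR from NoFC, −0.81 (SE 0.187), had an adjusted p of 0.0556, with FR below NoFC in every mouse, as for 1.65% of genes. It was past the threshold in 6 of 28 alternative settings, with adjusted p from 0.00931 to 0.842 over all of them.

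Hlf was less far apart between groups than the other members in its log2 values. It had 449, 408, 441 and 398 CPM in NoFC and 359, 463, 441 and 336 CPM in FC. It had 185, 158, 254 and 240.1 CPM in NoFR and 276, 439.7, 341 and 341 CPM in FR. The NoFC, FC and FR mice overlapped, and the NoFR mice lay below them all. NoFR was 2.02-fold lower than NoFC (log2 fold change −1.01, SE 0.146, adjusted p = 5.75e-07 by edgeR) and lower than FC by −0.97 (SE 0.161, adjusted p = 3.82e-05). FR was higher than NoFR by 0.73 (SE 0.154, adjusted p = 0.0110), and FC differed from NoFC by −0.04 (SE 0.125, 95% interval −0.29 to 0.20). The call of FR over NoFR held in 22 of 28 settings and was lost with DESeq2 (adjusted p = 0.0554), with HTODemux (0.249), without library 1 (0.41, adjusted p = 0.967) and without mouse NoFR 1, NoFR 2 or FR 2 (adjusted p = 0.195, 0.094 and 0.256).

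Nfil3, the repressor, could not be compared. It had 4 UMIs among the assigned pericytes, 1 each in mice NoFC 2, NoFR 1, NoFR 3 and NoFR 4, and was not tested. A count of 4 UMIs is too low to compare groups.

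Both groups collected a day after conditioning, NoFR and FR, were also set against both groups collected on the day itself. Dbp was lower by −1.22 (SE 0.138, adjusted p = 8.02e-08 by edgeR), Tef by −1.07 (SE 0.155, adjusted p = 1.17e-06) and Hlf by −0.63 (SE 0.105, adjusted p = 4.25e-05), among 34 genes called lower (0.520%). The contrast averages NoFR with FR, and FR against FC was called for no member in any of 28 alternatives. FR against NoFC was called in 10 of 28 for Dbp, 6 for Tef and 0 for Hlf. The Hlf call of the averaged contrast held in 27 of 28. No member was called between libraries, with log2 differences of −0.17 to 0.13 for Dbp. Where a library held both groups, the NoFR to NoFC difference kept its direction. It was −2.55 in library 1 and −1.86 in library 3 for Dbp, −1.97 and −1.43 for Tef, and −1.32 and −0.69 for Hlf. Without library 1, NoFR against FC was no longer called for Tef (−1.12, adjusted p = 0.276) and Hlf (−0.59, adjusted p = 0.598). All 3 calls of NoFR against NoFC were kept in all 28 alternatives, with log2 fold changes from −2.58 to −1.88 for Dbp, −2.04 to −1.38 for Tef and −1.34 to −0.71 for Hlf.

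The depth of the pericytes did not separate the groups. The median UMIs per pericyte of a mouse ran from 5033 to 5549 in NoFC, from 4917 to 5349 in FC, from 4566 to 5178 in NoFR and from 4797 to 5293 in FR, and mitochondrial UMIs were between 1.58% and 2.01% in every mouse. Summed smooth muscle markers spanned 37.1 to 760 CPM over the mice and overlapped between all groups.

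**Figure D3:**
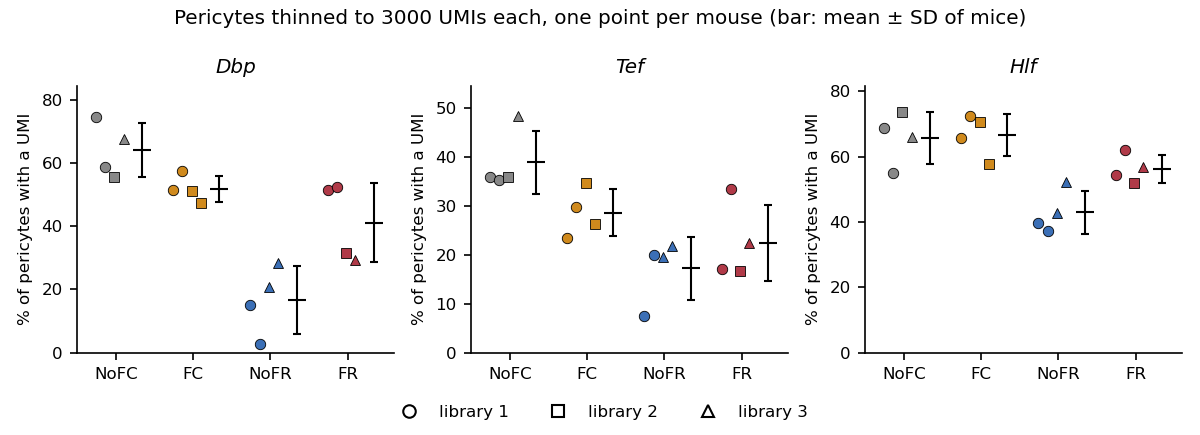
Percent of pericytes with at least 1 UMI of Dbp, Tef or Hlf after each cell was thinned to 3000 UMIs, with 1 point per mouse by group, marker shapes for libraries and bars for the mean ± SD of 4 mice (linear axes from 0). For Dbp the NoFR mice run from 2.86% to 28.3% and the NoFC mice from 55.7% to 74.6%.

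The share of pericytes in which a member was detected was set against its level at equal depth. After thinning to 3000 UMIs, Dbp was found in 64.2 ± 8.62% of the pericytes of a NoFC mouse, 51.9 ± 4.16% in FC, 16.7 ± 10.7% in NoFR and 41.2 ± 12.5% in FR (SD, n = 4 mice). As sequenced the means were 77.6%, 66.0%, 29.1% and 53.9%. For Tef the thinned means were 38.8%, 28.5%, 17.2% and 22.4%, and for Hlf 65.8%, 66.6%, 43.0% and 56.2%, and NoFR had the lowest mean for each gene.

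Other genes of the clock loop were examined with a list of 20, of which 13 passed the filter in pericytes. Between NoFR and NoFC, 5 were lower and 0 were higher, with a median log2 fold change of −0.53. Those lower were the period genes Per1 (−1.11, SE 0.285, adjusted p = 0.0236 by edgeR), Per2 (−1.71, SE 0.337, adjusted p = 0.000747) and Per3 (−1.70, SE 0.385, adjusted p = 0.00514), which repress CLOCK and BMAL1, and the REV-ERB genes Nr1d1 (−1.15, SE 0.160, adjusted p = 1.61e-07) and Nr1d2 (−0.74, SE 0.174, adjusted p = 0.00731). In alternative settings Nr1d1 was called in all 28, Per2 in 27, Per3 in 23, Nr1d2 in 22 and Per1 in 17. Nr1d1 had 315, 275, 357 and 335 CPM in NoFC mice and 90.8, 169, 189 and 142 CPM in NoFR mice. The NoFR mice lay below the NoFC mice without overlap, as for 2.55% of genes. Between NoFR and FC, Per2, Per3 and Nr1d1 were called lower. Between FR and NoFR, 1 of the 13 was called, Nr1d1, which was higher by 0.74 (SE 0.171, adjusted p = 0.0344).

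Arntl, Npas2 and Ciart fell below the filter and were tested only when no filter was set, over 16920 genes. Arntl, the gene of BMAL1 and an activator of the loop, had 5.29, 10.6, 4.75 and 8.59 CPM in NoFC and 5.66, 2.01, 11.0 and 9.33 CPM in FC. It had 24.4, 84.3, 48.9 and 61.8 CPM in NoFR and 10.6, 26.6, 30.1 and 24.1 CPM in FR. It was thus higher in every NoFR mouse than in every NoFC and FC mouse, opposite in direction to Dbp, Tef and Hlf. Of the 6543 genes that passed the filter, which leave out Arntl, 2.32% lay so against NoFC and 1.96% against FC. Arntl rested on 107 UMIs in all. It was 7.93-fold higher in NoFR than in NoFC (log2 fold change 2.99, SE 0.492, adjusted p = 1.42e-06 by edgeR), and 0.165% of genes were called higher in that fit. Npas2, a partner of BMAL1 like CLOCK, was higher by 2.76 (adjusted p = 0.00934). It rested on 1, 3, 2 and 1 UMIs in the NoFC mice and 11, 8, 7 and 5 in the NoFR mice. Ciart, a repressor of CLOCK and BMAL1, was lower by −2.71 (adjusted p = 0.0235), among 0.307% of genes called lower. Its counts were also low, with 11, 5, 17 and 7 UMIs in the NoFC mice and 0, 0, 3 and 1 in the NoFR mice. Clock itself had a difference of 0.47 (SE 0.193, adjusted p = 0.376) in the filtered fit.

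**Figure D4:**
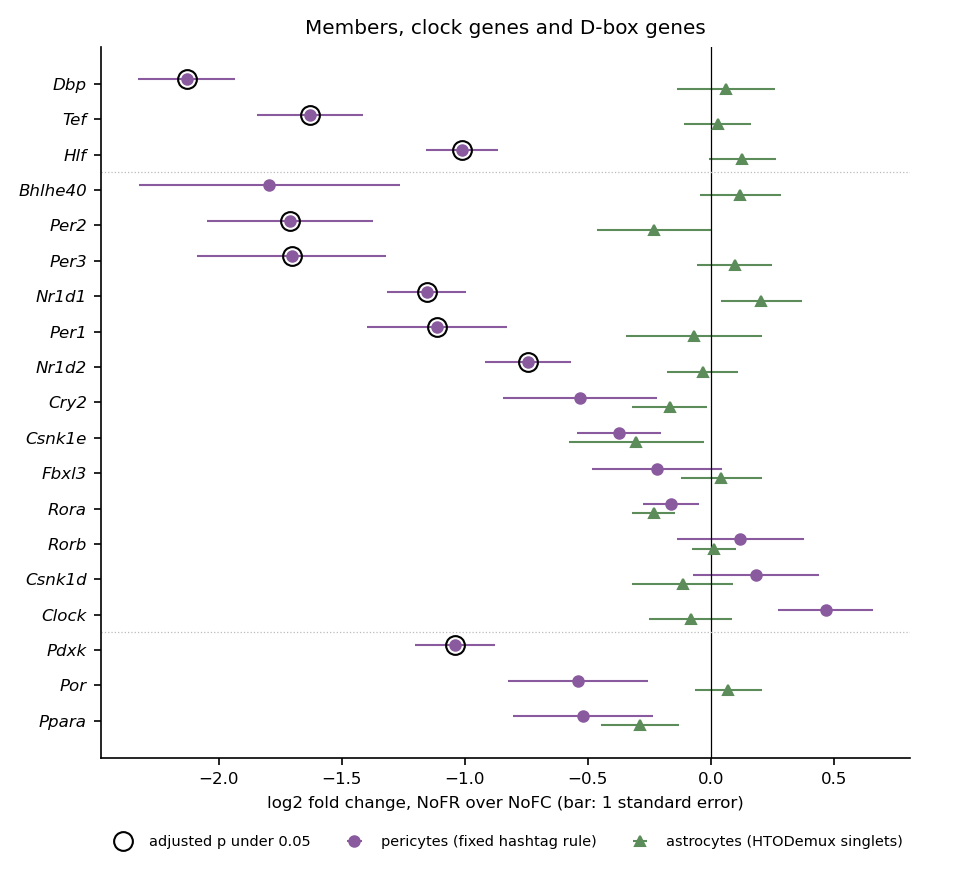
Log2 fold change of NoFR over NoFC with 1 standard error for the members (top), the tested clock genes (middle) and the tested D-box genes (bottom), in pericytes assigned by the fixed hashtag rule and in astrocytes called by HTODemux. Rings mark an adjusted p under 0.05: the 3 members, 5 clock genes and Pdxk in pericytes, and none in astrocytes.

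Genes known as targets of the PAR bZIP factors were few in these cells. Of 9 listed, 3 passed the filter, and 1 of them, Pdxk, was lower in NoFR. Pdxk had 243, 208, 244 and 289 CPM in NoFC, 198, 217, 239 and 224 CPM in FC, 122, 126, 130.4 and 105 CPM in NoFR and 191, 209, 191 and 196 CPM in FR. NoFR mice lay below all others, as for 2.55% of genes against NoFC, 2.67% against FC and 2.02% against FR. FR overlapped NoFC. The difference of NoFR from NoFC was −1.04 (SE 0.162, adjusted p = 3.83e-06 by edgeR), and that of FR from NoFR was 0.71 (SE 0.175, adjusted p = 0.0601). Por, which serves cytochrome P450 enzymes, and Ppara, a fatty acid sensor, differed by −0.54 and −0.52 and were not called. In the C/EBP family, related bZIP factors, 3 of 5 passed the filter and none was called. Cebpd was nearest, with −0.95 (SE 0.271, adjusted p = 0.170).

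In astrocytes no member was called in any comparison. By the fixed hashtag rule 11 mice and 3390 genes entered the fit, and between NoFR and NoFC 3 genes were called (0.0885%). For FC and for FR against NoFC 1 gene was called (0.0295%), and 0 genes in the other comparisons, where 89 to 131 had an unadjusted p under 0.05. Dbp had 107 and 53.0 CPM in 2 NoFC mice, 78.8 and 91.6 CPM in 2 FC mice, 96.7, 71.7, 53.4 and 138 CPM in 4 NoFR mice and 60.8, 90.8 and 56.1 CPM in 3 FR mice. These values rested on 3 to 151 UMIs a mouse. The 53.0 CPM of NoFC 3 came from 6 UMIs and the 138 CPM of NoFR 4 from 5. Astrocytes of NoFC 3 and NoFR 4 had median mitochondrial shares of 12.98% and 12.93% and medians of 1672 and 1185 genes. In the other mice of this fit these medians ran from 2.18% to 3.66% and from 2751 to 3719 genes. The groups overlapped for Dbp and Tef, and for Hlf the FR mice (101 to 133 CPM) lay below the FC mice (141 and 145 CPM), as for 6.49% of genes. The NoFR to NoFC difference was 0.17 for Dbp (95% interval −0.99 to 1.33), −0.79 for Tef (−1.69 to 0.12) and 0.27 for Hlf (−0.67 to 1.21). With 2 to 4 mice a group the intervals were wide, and a change as large as that of Tef in pericytes lies inside the astrocyte interval of Tef. The pericyte changes of Dbp (−2.13) and Hlf (−1.01) lie outside their astrocyte intervals. This is not a test of a difference, because the pericyte values have errors of their own. The astrocyte intervals also depend on single mice: without mouse NoFR 2 the Hlf difference was −0.12 with an SE of 0.538. The test of the difference between classes is given below.

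The hashtag calls of HTODemux, which sets a cut-off for each hashtag from the data, gave 1565 astrocytes from all 16 mice, with 46 to 251 per mouse. Of the 335 astrocytes assigned by the fixed rule, 172 were also HTODemux singlets, and both rules gave each of these cells the same mouse. Most of the 1565 were thus not assigned by the fixed rule. Over all astrocytes the strongest and next hashtags had medians of 4 and 2 UMIs. Wrong assignments among the HTODemux calls were not measured, and the intervals below do not cover them. With these calls Dbp had 91.3, 129, 89.8 and 60.5 CPM in NoFC, 75.6, 98.4, 90.1 and 61.4 CPM in FC, 114, 101, 58.8 and 102 CPM in NoFR and 83.8, 50.5, 87.7 and 78.1 CPM in FR. All groups overlapped. The NoFR to NoFC difference was 0.06 for Dbp (95% interval −0.33 to 0.45), 0.03 for Tef (−0.24 to 0.30) and 0.13 for Hlf (−0.14 to 0.39), and FR differed from NoFR by −0.32 for Dbp (−0.71 to 0.06). Of 9625 genes, 0 were called between NoFR and NoFC by edgeR, and 553 had an unadjusted p under 0.05. Tef stood at 135 ± 12.1, 139 ± 20.9, 135 ± 13.2 and 138 ± 17.2 CPM in NoFC, FC, NoFR and FR, and Hlf at 126 ± 21.4, 141 ± 9.36, 135 ± 13.9 and 118 ± 3.01 CPM (SD, n = 4 mice). Arntl, which was detected in astrocytes at 50.9 to 58.3 CPM in the group means, differed by −0.13 (95% interval −0.64 to 0.38).

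**Figure D5:**
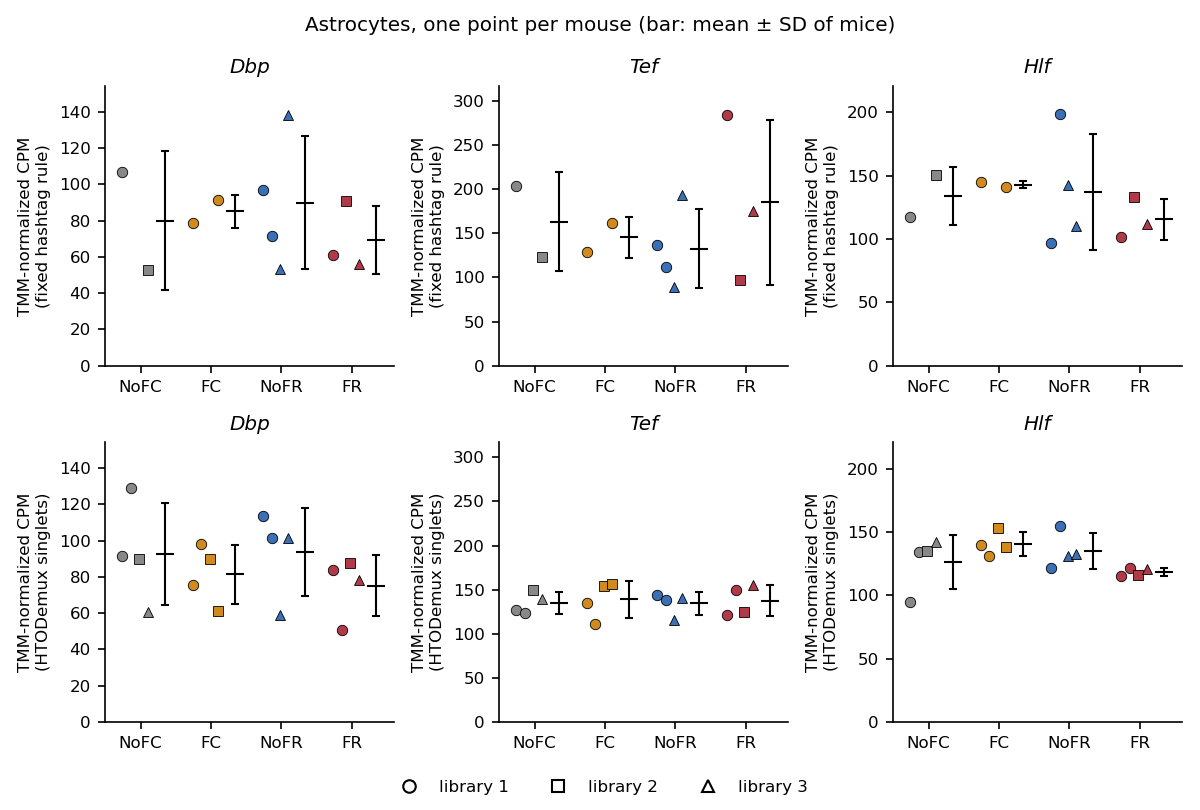
Level of Dbp, Tef and Hlf in the astrocytes of each mouse in TMM-normalized CPM (linear axes from 0), by group, for the fixed hashtag rule (top) and for HTODemux singlets (bottom); marker shapes give the library and bars the mean ± SD of mice. The groups overlap for Dbp and Tef by both rules.

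Whether the NoFR effect differed between the classes was tested with class by group terms, the mouse as a block, on the mice with at least 5 cells of both classes. By the fixed rule (11 mice, 7444 genes) the effect of NoFR over NoFC in pericytes minus that in astrocytes was −2.39 for Dbp (SE 0.589, unadjusted p = 4.94e-05, adjusted p = 0.0974 by edgeR), −1.36 for Tef (adjusted p = 0.982) and −1.19 for Hlf (adjusted p = 1.00), and 0 genes were called, with 353 at an unadjusted p under 0.05. With HTODemux (16 mice, 9808 genes), a setting added after the data were seen, it was −1.94 for Dbp (SE 0.301, adjusted p = 0.000534), −1.24 for Tef (adjusted p = 0.0296) and −0.97 for Hlf (adjusted p = 0.0309). These 3 members were among 7 genes called lower (0.0714%). Arntl differed in the other direction, by 2.81 (SE 0.477, adjusted p = 0.000534), among 5 genes called higher (0.0510%). With a looser hashtag limit, 5 UMIs and 2 times the second hashtag, all 3 members were also past the threshold, with adjusted p of at most 0.0174. With the fixed rule and a quality filter on cells, no member was past it. The adjusted p by edgeR was then 0.276 for Dbp and 0.972 for Tef. Both HTODemux and the looser limit take in astrocytes whose hashtags fail the fixed rule, and wrong assignments among them were not measured. For FR over NoFR the Dbp difference between classes was 1.38 by the fixed rule (adjusted p = 1.00) and 1.48 with HTODemux (adjusted p = 0.344), and it was past the threshold with the looser hashtag limit (1.73, adjusted p = 0.00618).

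The genes whose levels ran most like those of the members were found by Pearson's r of log2 CPM over the mice after removal of library means, as a description with no test. In pericytes (16 mice, 6543 genes) the 5 genes nearest to Tef included Nr1d1 (0.927), Hlf (0.912) and Dbp (0.899), and Nr1d2 (0.870) was among the 5 nearest to Hlf. The values share the mice and their groups, and the pericyte search was added after the data were seen. In astrocytes (11 mice, 3390 genes) no member and no clock gene of the list was among the 5 nearest to any member. The 5 nearest to Dbp were Rps4x (0.943), Prrx1, Msi1, Nmt1 and Nrarp (0.909), those to Tef were Lpin1 (0.909), Fbxl5, Eif2s3y, Ube4b and Ccdc66 (0.867), and those to Hlf included 9330159F19Rik (0.909), Kdm2a, Slc7a11 and B230219D22Rik (0.879). These rest on 264 to 464 UMIs per member and on few astrocytes in most mice.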

How the data were processed

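Single cells of 16 mice, 4 per group, were read from 3 gene expression libraries with hashtag counts. The deposited values are whole-number UMI counts per gene and barcode, which the authors made with Cell Ranger (3.0 in the submitters' processing notes, 7.0.0 in the file header) on mm10 with GENCODE vM23, and no normalization had been applied. Here barcodes were classed by marker UMIs and assigned to mice by hashtag, with no further filter on cells. Doublets were not called beyond the marker and hashtag limits.

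UMIs were summed per mouse and class over mice with at least 5 cells, filtered with filterByExpr, scaled by TMM and fitted with edgeR 4.0.16 (R 4.3.3) with robust quasi-likelihood, group and library terms and Benjamini-Hochberg adjustment at 0.05. Differences between classes were fitted with the mouse as a block. P-values measure the spread between mice within 3 pools. The 95% intervals of log2 differences are normal approximations from the SE. They leave out the limited degrees of freedom of the fit, so they are somewhat too narrow. Alternatives used DESeq2 1.42.0, other filters, scalings, class and hashtag limits, HTODemux (Seurat 5.3.0, positive quantile 0.99), thinning, and leaving out mice or libraries. HTODemux stopped on the full table and was run on barcodes with 100 or more genes and less than 6% of UMIs mitochondrial, and on hashtags with at least 500 UMIs in a library, a limit chosen after seeing the data. The fitting code was tested on simulated data.

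Named genes were the 4 members in every comparison, the main genes of a clock list of 20, Pdxk of 9 D-box targets, 5 C/EBP genes, any listed gene called, and the 5 genes most like each member. One of the latter is not reported here. Values named outside that rule, such as Cebpd, Clock and the pericyte likeness, were chosen after they were seen. The members and lists were chosen with earlier results of these data known. Hashtags that no label lists were left out of comparisons. Promoter windows are from RefSeq on GRCm38.p6 and gene positions from GENCODE vM21 on GRCm38.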

Additional observations from a re-analysis of the deposited data

How the results depend on the processing

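Low counts limited Nfil3 in both classes. In astrocytes the few cells assigned to most mice by the fixed hashtag rule limited every member. In pericytes all 28 alternatives kept the lower Dbp, Tef, Hlf, Nr1d1 and Pdxk in NoFR than in NoFC. The causes of the changes given here were not tested. The number of pericyte genes called for NoFR against NoFC, 72, was 39 with DESeq2 and 29 without library 3. For NoFR against FC, 33, it was 17 with DESeq2, 65 with no library term, 53 with the looser hashtag limit, 19 without library 1 and 14 without library 3. For FR against NoFR, 9, it was 4 with DESeq2, 4 with HTODemux and 19 with no filter. For FR against NoFC, 3, it was 0 with DESeq2, 10 with no filter, 1 with the looser hashtag limit, 16 without library 1 and 0 without library 2. For the day after against the day of conditioning, 60, it was 32 with DESeq2, and 38, 26 and 37 without libraries 1, 2 and 3. Against 0 for FC and NoFC it was 2 with no filter and 2 without library 1, and against 0 for FR and FC it was 1 with no filter, 10 without library 1 and 3 without library 3. Between libraries 2 and 1, 3 and 1, and 3 and 2 it was 2, 7 and 3 with no filter, and 0 for libraries 3 and 1 with the looser hashtag limit.

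Mouse numbers were tried as a replicate block in place of the library. Same-numbered pericyte samples had correlations of −0.0838 to 0.0557 over all tested genes, against −0.0729 to 0.0617 for other pairs between groups. These values show no pairing by number over all genes, and a pairing limited to a few genes was not tested. With the block, pericyte calls were 0 for FR against NoFC and 55 for NoFR against FC, Dbp differed by −0.78 between FR and NoFC (adjusted p = 0.0624), and no other call of Dbp, Tef or Hlf was changed. In astrocytes the block gave 0.0211 for Tef and −0.10 for Hlf between NoFR and FC, and 0.00603 for Dbp between FR and NoFR.

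Leaving out 1 mouse at a time, pericyte genes called ran from 43 to 84 for NoFR against NoFC, 23 to 43 for NoFR against FC, 4 to 16 for FR against NoFR, 0 to 6 for FR against NoFC, 0 to 1 for FC against NoFC, 0 to 3 for FR against FC and 28 to 66 for the day. Hlf between FC and NoFC ran from −0.14 to 0.0205, and was 0.0179 without library 2. In astrocytes genes called ran from 1 to 4 for NoFR against NoFC, 0 to 2 for NoFR against FC and 0 to 3 for FR against NoFR. Astrocyte Dbp ran from −0.37 to 1.22, −0.00339 to 0.36 and −0.50 to 0.22 in these comparisons, Tef from −1.21 to −0.61, −0.28 to 0.0685 and 0.45 to 0.93, and Hlf from −0.12 to 0.51, −0.45 to 0.33 and −0.61 to −0.12.

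Astrocyte differences were never past the threshold, and several changed sign. For NoFR against NoFC, Dbp was −0.11 with the quality filter, −0.0872 with at least 10 cells per mouse, −0.35 without library 2, −0.0368 without library 3 and −0.35 without mice FC 1 and FR 3, a setting added after seeing the data. Tef was 0.0285 with HTODemux and Hlf −0.0170 with stricter class limits. For NoFR against FC, Dbp was −0.0202 with no library term and −0.0885 without FC 1 and FR 3, Tef was 0.00795 with HTODemux, and Hlf was −0.0900 with no filter, −0.0256 with no library term, −0.0186 with the looser hashtag limit, −0.0285 with HTODemux and −0.0177 with stricter limits. For FR against NoFR, Dbp was 0.60 with the quality filter, 0.49 with at least 10 cells and 0.25 without library 3, and Tef was −0.00978 with HTODemux. The 3 astrocyte genes called for NoFR against NoFC became 1 with DESeq2, 0 with the looser hashtag limit, with HTODemux, with the quality filter and with stricter limits, 1 without library 1 and 6 without library 3. For NoFR against FC there was 1 with stricter limits and 7 without library 3, and for FR against NoFR 4 without library 3. Genes whose effect differed between the classes, 0 in each comparison, were 11, 3 and 1 with the looser hashtag limit for NoFR against NoFC, NoFR against FC and FR against NoFR, and 12 and 3 with HTODemux for the first pair of these. Thinned to 3000 UMIs, the share of astrocytes and pericytes with a UMI was 22.3% and 39.0% for Dbp, 32.2% and 25.6% for Tef and 29.7% and 55.3% for Hlf. Between NoFR and NoFC in pericytes, Per2 lost its call without library 1, Per3 and Nr1d2 without library 1, library 3, NoFC 4 or NoFR 1, and Nr1d2 also without NoFR 2. Per1 lost it without any 1 library and without NoFC 3, NoFC 4, NoFR 1, NoFR 2 or NoFR 3. Per1, Per3 and Nr1d2 lost it with DESeq2 as well, and Per1 with HTODemux and the looser hashtag limit.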

Other observations

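Some pericytes carried a hashtag that no label ties to a group. Over the 11 such hashtags with at least 20 pericytes, 523 cells in all, Dbp ran from 24.5 to 349 CPM with a median of 71.6, Tef from 26.1 to 149 CPM with a median of 51.4, and Hlf from 135 to 449.6 CPM with a median of 192. Arntl ran from 6.50 to 94.5 CPM in them, with a median of 41.5. These samples entered no comparison.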
